A study of Mus musculus with 44 samples.

Results

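The comparison set polysome-bound RNA of Chrna5-line neurons of the interpeduncular nucleus (IPN) against that of Amigo1-line neurons, in 6 immunoprecipitated (IP) libraries of the 44 libraries of the series. They were chosen by their labels alone, as all IPN IPs of these lines from mice that received no nicotine, 3 per line. The Chrna5 IPs came from Chrna5-Cre (SN83)::Eef1a1-LSL.EGFPL10 mice, as baseline pools 1 (6 animals), 2 (8 animals) and 4 (6 males). The Amigo1 IPs came from Amigo1-Cre (NP231)::Eef1a1-LSL.EGFPL10 mice, as baseline pools 1 (5 animals) and 4 (8 animals) and saline pump pool 1 (5 animals with a saline-filled minipump for 10 days). All mice were adults on a B6J.Cg background, and the labels give the sex of no pool but Chrna5 pool 4. In both lines a BAC transgene drives Cre in neurons that use the named promoter, and Cre switches on EGFP-tagged ribosomal protein L10a, whose pull-down with anti-GFP beads captures RNA under translation in those cells (TRAP). Each group is 1 driver line, so the line and its transgene cannot be told apart. Whole-homogenate RNA (input) was available for 4 pools of each line: Chrna5 baseline pools 1 to 4, and Amigo1 baseline pools 1, 2 and 4 and saline pump pool 1.

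The IPN is a midline midbrain nucleus that receives cholinergic and peptidergic axons of the medial habenula. The alpha5 nicotinic receptor subunit, encoded by Chrna5, is an accessory subunit that joins other nicotinic subunits in pentameric cation channels, and it is known for its part in nicotine aversion through the habenula-IPN pathway. Chrna5 lies beside Chrna3 and Chrnb4, which encode the alpha3 and beta4 subunits, in a gene cluster shared by mammals. Amigo1 encodes a transmembrane protein with leucine-rich repeats that associates with Kv2 potassium channels. IPN neurons are mostly GABAergic, and many hold somatostatin (Sst) or neuronal nitric oxide synthase (Nos1).

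The lines were counted on different gene lists: the Chrna5 IPs on a longer list (list 1) and the Amigo1 IPs on a shorter one (list 2), with 22926 symbols in common. Line and list therefore cannot be told apart within the 6 libraries. IPs of medial habenula cholinergic neurons (ChAT-TRAP DW167 mice) without nicotine had been counted on both lists, 2 on list 2 and 3 on list 1, and their difference (list 2 minus list 1, log2) measured the list shift of each gene. Those 5 IPs also differ in treatment (saccharin water with a saline injection, a saline pump, or saccharin water alone), which the shift includes. In edgeR's quasi-likelihood test with Benjamini-Hochberg adjustment, 1319 of 13323 genes (9.9%) shifted at adjusted p under 0.05, and the median absolute shift was 0.319 over the 12137 genes with a mean of at least 1 CPM, which is counts scaled to library size, in ChAT IPs. The 10737 genes with that level and a shift under 1 are called comparable below, and in IPs only comparable genes are named, apart from line, sex and cell type markers given as levels and 1 gene marked as unchecked. This rule used the estimate of the shift without regard to its standard error (SE).

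The 6 IPs held 7908401 to 47728473 counts in genes, the lowest in the Amigo1 saline pump pool, whose next-lowest neighbour in its group held 13973928. That pool also stood apart in composition: its log2 CPM correlated at 0.847 and 0.855 across genes with the Amigo1 baseline pools, which correlated at 0.954 with each other, and the Chrna5 pools correlated at 0.943 to 0.964. Marker genes of other cells were raised in it. Summed levels of 17 oligodendrocyte markers were 341, 376 and 633 CPM in Chrna5 pools 1, 2 and 4, against 757, 713 and 2267 CPM in Amigo1 pools 1, 4 and saline pump 1. Summed levels of 12 dopamine and serotonin neuron markers were 234, 303 and 341.5 CPM in the Chrna5 pools, against 528, 451 and 1000 CPM in the Amigo1 pools. In bulk libraries, fewer cells of a type and less RNA per cell cannot be told apart. Sex-linked genes also varied between pools. Xist, the RNA of the inactive X chromosome, was at 1.41, 1.84 and 0 CPM in the Chrna5 pools, against 12.2, 7.07 and 10.2 CPM in the Amigo1 pools, without overlap, but its list shift was -2.93. Ddx3y, a Y-linked RNA helicase, was at 23.3, 37.3 and 78.4 CPM in the Chrna5 pools, against 18.5, 55.0 and 0.439 CPM in the Amigo1 pools, with the saline pump pool lowest. Eif2s3y, a Y-linked translation factor, was at 1.54, 8.25 and 21.0 CPM in the Chrna5 pools, against 3.96, 9.73 and 2.78 CPM in the Amigo1 pools, with Chrna5 pool 1 lowest. The part of other cells, depth and sex in the results was not tested.

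Of 13323 genes tested, 408 (3.06%) were higher and 316 (2.37%) lower in Chrna5 than in Amigo1 IPs at adjusted p under 0.05. Among the called genes, 426 had a list shift of 1 or more in ChAT IPs and 47 were below 1 CPM there, and the median shift was -1.42 for those higher in Chrna5 IPs and 1.45 for those lower. Among the 10737 comparable genes, 142 (1.32%) were higher and 109 (1.02%) lower, and the median log2 difference of all comparable genes was 0.01. Of these 251 calls, 249 had groups that did not overlap, out of 2356 comparable genes without overlap. Without the saline pump pool, 587 comparable genes were called, 332 higher and 255 lower, with 245 of the 251 among them. Counts of list members given below for that fit stand beside these totals. In each of the 6 fits that left out 1 library, 38 of the 251 stayed past the threshold, 31 higher and 7 lower. With 3 Amigo1 IPs from mice that drank nicotine water added, 0 of the comparable genes passed by edgeR, 326 had an unadjusted p under 0.05, and DESeq2 called 26. Those 3 IPs held only 10588 to 11000 detected shared symbols, against 13461 to 15416 in the 6 IPs.

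**Figure D1:**
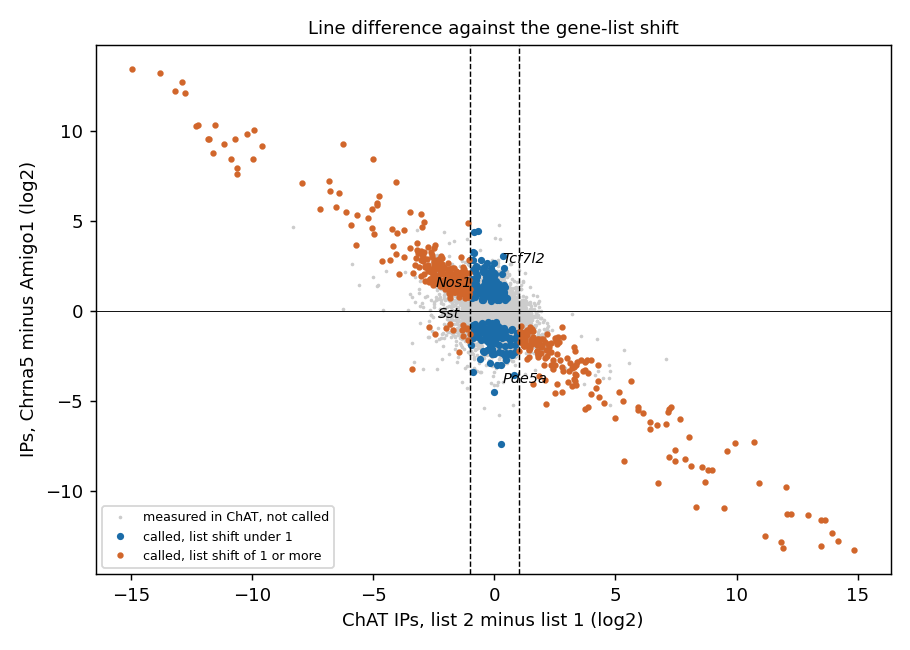
Each point is a gene with at least 1 CPM in ChAT IPs; the horizontal axis is its ChAT difference between gene lists (list 2 minus list 1, log2) and the vertical axis its IP difference (Chrna5 minus Amigo1, log2). Called genes beyond the dashed lines at -1 and 1 run along a falling diagonal, while Tcf7l2 and Pde5a lie near a shift of 0, and the markers Nos1 and Sst lie beyond the left line.

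The line markers were read first. Chrna5 was measured at 313, 508 and 331 CPM in Chrna5 pools 1, 2 and 4, against 136, 153 and 152 CPM in Amigo1 pools 1, 4 and saline pump 1. All 3 Chrna5 pools lay above all 3 Amigo1 pools, with a log2 difference of 1.39 ± 0.21 (SE, adjusted p = 0.0037, edgeR) and a list shift of 0.26. With a gene-list term estimated from the ChAT IPs the difference was 1.65 (adjusted p = 0.064). Amigo1 was at 120, 157 and 148 CPM in the Chrna5 IPs, against 114, 112 and 180 CPM in the Amigo1 IPs, with overlapping groups (log2 difference 0.07 ± 0.23, adjusted p = 0.92, list shift 0.03). The gene that names the Amigo1 line thus did not separate its IPs from Chrna5 IPs.

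Sst was at 2643, 2368 and 2247 CPM in the Chrna5 pools, against 3946, 4180 and 5319 CPM in the Amigo1 pools. Nos1, which makes nitric oxide, was at 1563, 1373 and 1417 CPM in the Chrna5 pools, against 959, 984 and 536 CPM in the Amigo1 pools. Both markers were abundant in both lines, but their list shifts were -2.70 and -2.79, so no difference between the lines is read from these levels. Epyc, a small leucine-rich proteoglycan that names a further IPN line, was at 4.50, 12.4 and 12.9 CPM in Chrna5 pools, against 0.533, 0.475 and 3.07 CPM in Amigo1 pools. It had at most 0.0173 CPM on average in ChAT IPs of either list, so its list shift could not be checked and no difference is read.

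The 3 genes of the Chrna5 cluster on chromosome 9 were higher in the Chrna5 line in both IPs and inputs. The genes span 54980880 to 55048779 of chromosome 9 (GRCm38): Chrna5 at chr9:54980880-55007779 on the plus strand, Chrna3 at chr9:55010111-55026562 and Chrnb4 at chr9:55028154-55048779 on the minus strand. No exon of these genes overlaps an exon of another gene in GENCODE M21. Their start regions are shown because the 3 genes moved together; each runs from 250 bases before to 50 bases after an annotated start (RefSeq, GRCm38.p6, 5′ to 3′), and Chrna5 has 2 such starts. Capitals mark matches on either strand to the GC box GGGCGG or the TCF/LEF core CTTTGA, of which 35.7% and 16.0% of 32851 promoters in the table hold at least 1.
Chrna5 start A, chr9:54980630-54980929, plus strand: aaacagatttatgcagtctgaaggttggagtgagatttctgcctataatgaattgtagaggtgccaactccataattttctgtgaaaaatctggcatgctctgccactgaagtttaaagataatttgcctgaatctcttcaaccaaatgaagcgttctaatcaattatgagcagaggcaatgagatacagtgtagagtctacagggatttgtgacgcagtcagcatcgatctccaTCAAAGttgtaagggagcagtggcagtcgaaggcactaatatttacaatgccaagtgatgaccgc
Chrna5 start B, chr9:54981238-54981537, plus strand: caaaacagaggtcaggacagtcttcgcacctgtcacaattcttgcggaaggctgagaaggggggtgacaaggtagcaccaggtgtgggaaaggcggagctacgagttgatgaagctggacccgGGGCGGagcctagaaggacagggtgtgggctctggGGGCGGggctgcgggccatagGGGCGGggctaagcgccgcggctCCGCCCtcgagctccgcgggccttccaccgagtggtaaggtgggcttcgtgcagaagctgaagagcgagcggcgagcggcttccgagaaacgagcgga
Chrna3, chr9:55026513-55026812, minus strand: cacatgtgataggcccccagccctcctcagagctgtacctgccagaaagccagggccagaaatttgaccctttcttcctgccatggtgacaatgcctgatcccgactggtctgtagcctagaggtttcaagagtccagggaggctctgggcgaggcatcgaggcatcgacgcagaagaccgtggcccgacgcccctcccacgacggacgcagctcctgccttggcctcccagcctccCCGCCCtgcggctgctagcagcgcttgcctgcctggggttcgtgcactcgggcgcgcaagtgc
Chrnb4, chr9:55048495-55048794, minus strand: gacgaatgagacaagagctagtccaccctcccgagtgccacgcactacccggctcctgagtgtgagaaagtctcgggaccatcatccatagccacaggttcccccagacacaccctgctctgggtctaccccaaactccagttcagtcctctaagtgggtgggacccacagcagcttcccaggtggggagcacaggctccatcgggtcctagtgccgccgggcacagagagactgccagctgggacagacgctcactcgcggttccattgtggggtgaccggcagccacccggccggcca
Start B of Chrna5 held 4 GC boxes, Chrna3 held 1, and start A of Chrna5 held 1 TCF/LEF core. Chrnb4 had no match to either motif in this window.

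Chrna3 was measured at 450, 509 and 586 CPM in Chrna5 pools 1, 2 and 4, against 93.2, 111 and 157 CPM in Amigo1 pools 1, 4 and saline pump 1. The log2 difference was 2.10 ± 0.22 (SE, adjusted p = 0.00034, edgeR), with a list shift of -0.03. Chrnb4 was at 223, 350 and 398 CPM in the Chrna5 pools, against 42.5, 56.8 and 86.8 CPM in the Amigo1 pools (log2 difference 2.39 ± 0.30, adjusted p = 0.0013, list shift 0.39). For both genes the groups did not overlap and the call held with the list term (adjusted p = 0.0088 for each). All 3 cluster genes were called in each of the 6 fits that left out 1 library.

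The same 3 genes set the inputs of the lines apart. All inputs were counted on list 1, so no list shift enters. Of 14754 genes tested in inputs, 4 (0.0271%) passed adjusted p under 0.05, all higher in the Chrna5 line: Chrna3, Chrnb4, Chrna5 and Abcd3, a peroxisomal transporter of fatty acids. Chrna3 averaged 194 ± 20.4 CPM in Chrna5 inputs and 28.3 ± 4.11 CPM in Amigo1 inputs (SD, n = 4 each), a log2 difference of 2.78 ± 0.14 (SE, adjusted p = 5.3e-10, edgeR). Chrnb4 averaged 97.7 ± 23.0 CPM in Chrna5 inputs and 17.9 ± 4.14 CPM in Amigo1 inputs (SD, n = 4 each), and Chrna5 averaged 120 ± 11.9 CPM in Chrna5 inputs and 35.4 ± 7.86 CPM in Amigo1 inputs (SD, n = 4 each). The log2 differences were 2.45 ± 0.19 for Chrnb4 and 1.76 ± 0.15 for Chrna5 (SE, adjusted p = 1e-06 and 2.8e-06, edgeR). None of the 3 genes overlapped between the Chrna5 and the Amigo1 inputs. DESeq2 called 29 genes in the same inputs, and leaving out single libraries gave 4 to 12.

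The difference in IPs did not measurably exceed the difference in inputs. In a fit of IPs and inputs of both lines, the IP difference minus the input difference was -0.39 ± 0.26 for Chrna5, -0.70 ± 0.24 for Chrna3 and -0.08 ± 0.37 for Chrnb4 (log2, SE; adjusted p = 0.46, 0.10 and 0.95, edgeR). Enrichment in the IP over the input was therefore not measurably greater in the Chrna5 line for any of the 3. The part of the BAC transgene in these levels was not tested.

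A further line was set beside these inputs. Against 4 inputs of the Epyc line (Epyc-Cre (KR363)::Eef1a1-LSL.EGFPL10; baseline pools 1, 2 and 4 and saline pump pool 2, 11 days; also list 1), 2 of 14746 genes (0.0136%) passed, Chrna3 and Chrnb4, with log2 differences of 2.59 and 2.76 higher in the Chrna5 line (adjusted p = 0.00017 each, edgeR). Chrna5 differed by 1.78 in the same direction without passing (adjusted p = 0.096). Its values in the Epyc inputs were 24.1, 23.3, 25.0 and 64.1 CPM, the last in the saline pump pool. Between Amigo1 and Epyc inputs 0 of 14704 genes (0%) passed by edgeR, 535 had an unadjusted p under 0.05, and DESeq2 called 4. Abcd3 was at 97.5, 95.1, 108 and 83.9 CPM in Chrna5 inputs 1 to 4, against 48.7, 50.8, 50.9 and 57.8 CPM in Amigo1 inputs 1, 2, 4 and saline pump 1, and at 69.4 to 105 CPM in Epyc inputs. It differed from the Amigo1 inputs by 0.89 ± 0.12 (adjusted p = 0.0025) and from the Epyc inputs by 0.20 (adjusted p = 0.99).

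**Figure D2:**
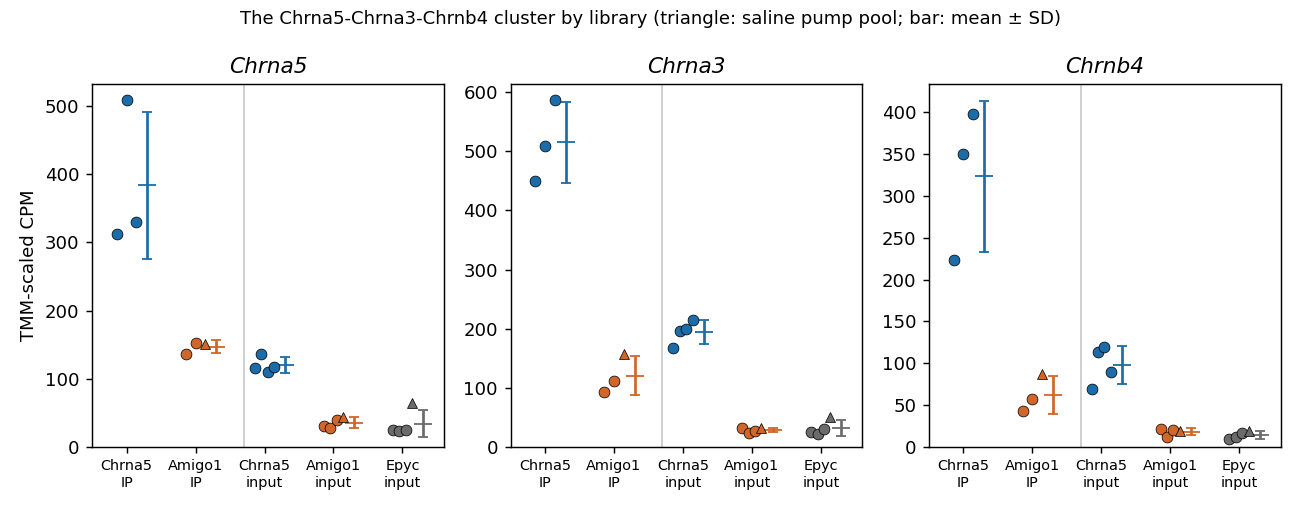
TMM-scaled CPM of Chrna5, Chrna3 and Chrnb4 in each library; bars give mean ± SD, and triangles are saline pump pools. IPs, the inputs of the Chrna5 and Amigo1 lines, and the Epyc inputs were scaled as separate sets. Every Chrna5-line point lies above every Amigo1-line point of the same fraction in all 3 panels.

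Neighbouring genes gave no call. Within 500 kb on either side of Chrna5, 14 genes outside the cluster were tested in inputs. Of these, 0 were called by edgeR or DESeq2 and 2 had an unadjusted p under 0.05, and log2 differences ran from -1.01 to 0.343. The nearest on each side were Psma4, a proteasome subunit, at 0.28 ± 0.15 and Ube2q2, a ubiquitin-conjugating enzyme, at 0.34 ± 0.14 (SE, adjusted p = 0.72 and 0.64). Their unadjusted p values were 0.071 and 0.022.

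**Figure D3:**
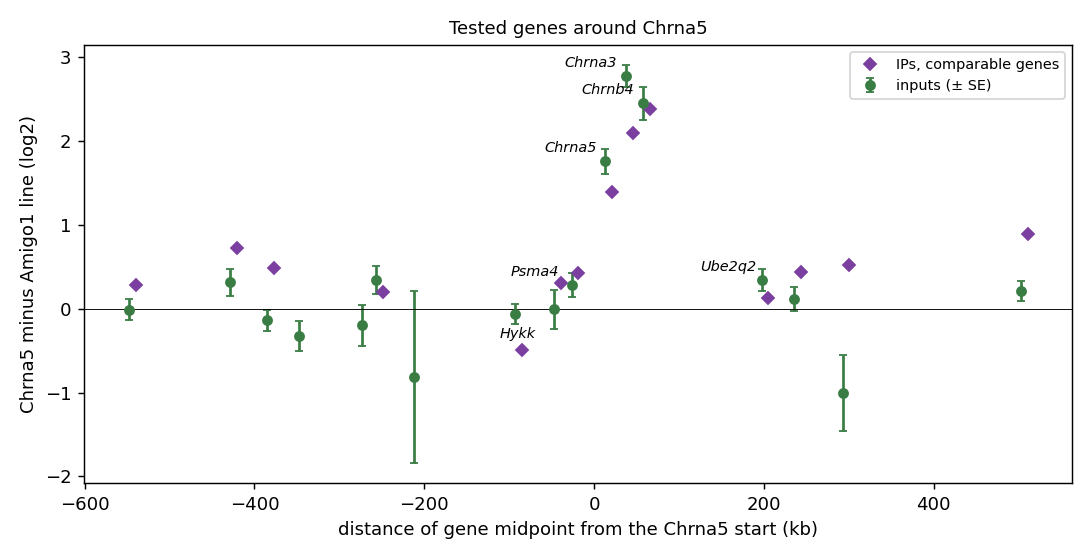
Log2 difference between the Chrna5 and Amigo1 lines for tested genes around Chrna5, placed by the distance of the gene midpoint from the Chrna5 start in kb. Circles are inputs with their SE, and diamonds, drawn slightly to the right of the same position, are comparable genes in IPs. The 3 cluster genes lie between 1.39 and 2.78 in both fractions, and no other gene shown was called in inputs.

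Among nicotinic subunits, the calls over the 6 IPs were those of the cluster. Of 9 nicotinic subunit genes tested in IPs, 8 were comparable, and 3 of these were higher in Chrna5 IPs, all in the cluster, with 0 lower. Over all comparable genes 1.32% were higher and 1.02% lower. The median log2 difference of the 8 was 0.10, beside 0.01 over all comparable genes. Chrna6 was at 22.7, 24.5 and 39.0 CPM in the Chrna5 pools, against 51.4, 52.1 and 73.2 CPM in the Amigo1 pools (log2 difference -1.03 ± 0.30, adjusted p = 0.078, edgeR, shift -0.34). Chrnb3, which often joins alpha6 in dopamine neurons, was at 9.63, 13.2 and 18.2 CPM in the Chrna5 pools, against 20.3, 28.8 and 54.8 CPM in the Amigo1 pools (-1.33 ± 0.42, adjusted p = 0.11, shift 0.27). Neither group pair overlapped, and neither passed the threshold. In the fit without the saline pump pool, Chrna4, the alpha4 subunit, was the fourth of these genes called higher, at 0.72 (adjusted p = 0.049, edgeR). It was at 99.6, 131 and 145 CPM in the Chrna5 pools, against 66.3, 85.4 and 218 CPM in the Amigo1 pools, the last in the saline pump pool, and with all 6 IPs it differed by 0.03 (adjusted p = 0.98).

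Several transcription factors differed by about the size of the cluster genes. Of 71 tested factors of midbrain and hindbrain neurons, 39 were comparable, and 3 of these were higher and 1 lower in Chrna5 IPs, with a median log2 difference of -0.34 for the 39. The shares over all comparable genes were 1.32% higher and 1.02% lower. Tcf7l2, the DNA-binding partner of beta-catenin in Wnt signalling, was at 654, 457 and 489 CPM in the Chrna5 pools, against 101, 109 and 140 CPM in the Amigo1 pools. The difference was 2.19 ± 0.21 (SE, adjusted p = 0.00016, edgeR) with a shift of -0.06, and 2.13 with the list term (adjusted p = 0.0066). Esrrg, an orphan nuclear receptor, was at 198, 207 and 258 CPM in the Chrna5 pools, against 51.3, 54.9 and 52.5 CPM in the Amigo1 pools (2.06 ± 0.19, adjusted p = 0.00016, shift -0.26). Ebf1, a factor of neuronal and B-cell differentiation, was at 42.3, 42.9 and 46.5 CPM in the Chrna5 pools, against 10.3, 12.7 and 7.75 CPM in the Amigo1 pools (2.09 ± 0.30, adjusted p = 0.0026, shift -0.13). Each of the 3 had all Chrna5 pools above all 3 Amigo1 pools and was called in each fit that left out 1 library. None was called against the nicotine-water Amigo1 IPs alone. There the difference was 0.94 for Tcf7l2, 0.09 for Esrrg and 3.46 for Ebf1 (adjusted p = 0.20, 0.96 and 0.35, edgeR). Those IPs held 285, 104 and 96.3 CPM of Esrrg.

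Foxp2, a forkhead factor, was the 1 comparable factor called lower over the 6 IPs. It was at 30.8, 19.4 and 22.6 CPM in the Chrna5 pools, against 61.8, 44.6 and 52.2 CPM in the Amigo1 pools (log2 difference -1.12 ± 0.28, adjusted p = 0.045, edgeR, shift -0.12). That call held in 1 of the 6 fits that left out a library. In the fit without the saline pump pool 4 comparable factors were lower, among them Foxp2, Nfib and Rorb, and 4 higher, Esrrb beside the 3 above. Sox6, a SoxD factor outside the list that was named after its values were seen, was at 143, 133 and 151 CPM in the Chrna5 pools, against 46.1, 32.7 and 22.1 CPM in the Amigo1 pools (2.08 ± 0.28, adjusted p = 0.0017, shift 0.33).

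These factors were also low in Amigo1 IPs next to a line counted on the same list. The Epyc IPs without nicotine (4 baseline pools and saline pump pool 1, 10 days) had been counted on list 2, as the Amigo1 IPs were. In the test of Amigo1 against Epyc IPs, 536 of 13566 genes (3.95%) were higher and 554 (4.08%) lower in Amigo1, with Tcf7l2, Esrrg, Ebf1 and Sox6 at -3.17, -2.41, -1.96 and -1.84 on the log2 scale (adjusted p = 1.3e-07, 1.9e-07, 0.0003 and 0.00018, edgeR). Since this test uses the same Amigo1 IPs as the comparison with Chrna5, its values stand beside that comparison and add no further Amigo1 pools.

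**Figure D4:**
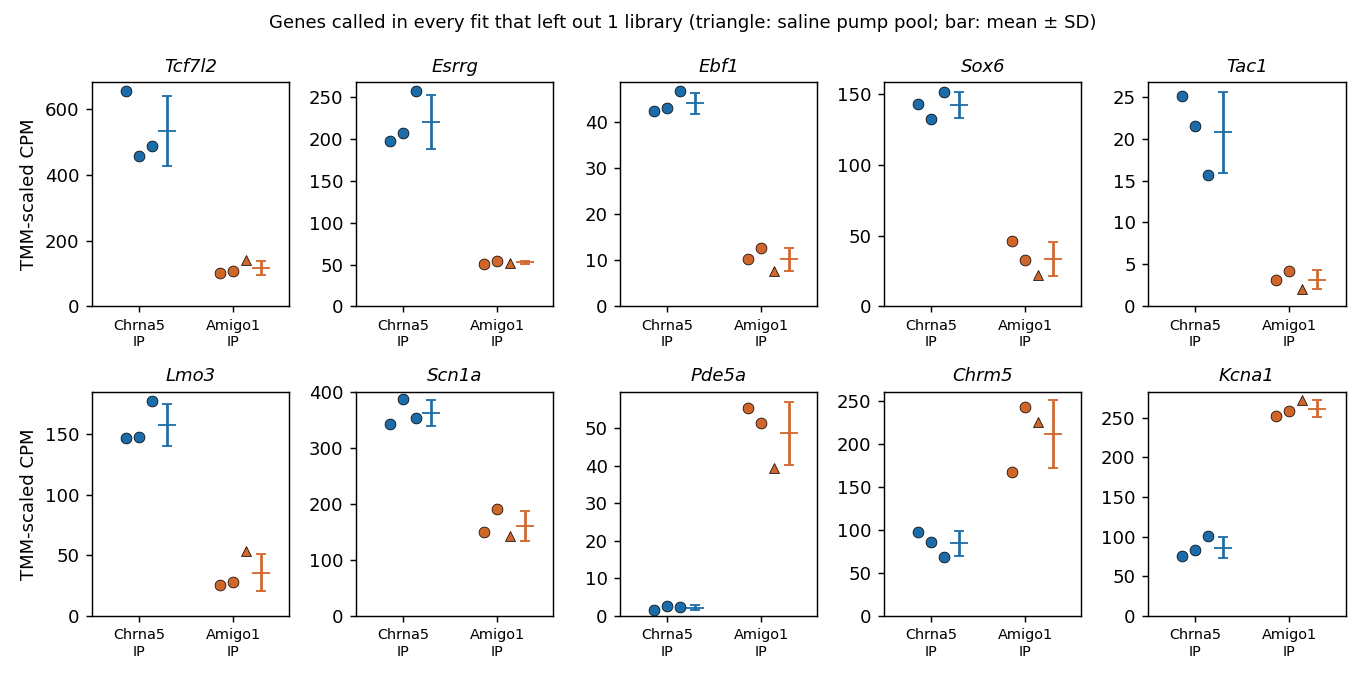
TMM-scaled CPM of 10 comparable genes in the 3 Chrna5 and 3 Amigo1 IPs; bars give mean ± SD, and the triangle is the saline pump pool. The groups do not overlap in any of the 10 panels: 7 genes are higher in Chrna5 IPs, and Pde5a, Chrm5 and Kcna1 are lower.

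Pde5a, a cGMP phosphodiesterase, had the largest lower difference among called comparable genes that reached 10 CPM and whose groups did not overlap. Nitric oxide from Nos1 activates soluble guanylyl cyclase, and phosphodiesterases such as Pde5a break down the cGMP that it makes. Pde5a (chr3:122728947-122859374, plus strand, GRCm38) was at 1.48, 2.58 and 2.41 CPM in the Chrna5 pools, against 55.3, 51.3 and 39.3 CPM in the Amigo1 pools. The log2 difference was -4.48 ± 0.37 (SE, adjusted p = 7.8e-05, edgeR), with a list shift of -0.03, and it was -4.52 with the list term (adjusted p = 0.0066). Among the 6 IPs no Chrna5 pool came near an Amigo1 pool. The 3 nicotine-water Amigo1 IPs varied more, at 26.4, 0 and 4.67 CPM. Against those IPs alone the difference was -2.62 (adjusted p = 0.56, edgeR). An exon of Pde5a overlaps 1 other annotated gene, and the protocols name no strand marking, so reads of both cannot be told apart there.

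In Epyc IPs, on the same list as Amigo1, Pde5a was at 0.626, 0.256, 1.58, 1.10 and 0.499 CPM, and Amigo1 exceeded Epyc by 5.92 on the log2 scale (adjusted p = 2.7e-06, edgeR). In inputs Pde5a did not differ measurably between the Chrna5 and Amigo1 lines (-0.52 ± 0.36, adjusted p = 0.77). The IP difference minus the input difference was -3.98 (adjusted p = 8e-05). The start region of Pde5a is shown beside those of the cluster, since its level separated the lines most among the named lower genes, with capitals as above; it held 1 GC box and no TCF/LEF core.
Pde5a, chr3:122728908-122729207, plus strand: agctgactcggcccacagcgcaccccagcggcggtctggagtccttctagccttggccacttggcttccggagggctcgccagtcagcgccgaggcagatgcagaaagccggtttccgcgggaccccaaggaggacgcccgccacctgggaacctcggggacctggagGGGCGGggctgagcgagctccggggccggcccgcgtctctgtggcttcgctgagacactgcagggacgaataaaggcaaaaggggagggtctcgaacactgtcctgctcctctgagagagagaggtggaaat

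Of 18 tested genes of nitric oxide and cGMP signalling, 12 were comparable, with 0 higher and 2 lower in Chrna5 IPs and a median of -0.31. These counts stand beside 1.32% higher and 1.02% lower over all comparable genes. The second was Pde1a, a calcium-dependent phosphodiesterase, at 187, 167 and 179 CPM in the Chrna5 pools, against 316, 388 and 241 CPM in the Amigo1 pools (-0.83 ± 0.20, adjusted p = 0.039, edgeR, shift -0.15). Its call held in 1 of the 6 fits that left out a library. Without the saline pump pool, 3 of the 12 were lower.

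Receptors for amines and acetylcholine differed in single genes, beside 1.32% of all comparable genes called higher and 1.02% lower. Of 22 tested monoamine and muscarinic receptors, 13 were comparable, with 1 higher and 1 lower and a median of -0.34. Chrm5, the M5 muscarinic receptor, was at 97.9, 85.5 and 68.8 CPM in the Chrna5 pools, against 167, 243 and 225 CPM in the Amigo1 pools (-1.33 ± 0.22, adjusted p = 0.0055, edgeR, shift -0.29). The groups did not overlap, and the call held in all 6 fits that left out a library. Epyc IPs had 14.4 to 29.4 CPM of Chrm5, and Amigo1 exceeded them by 3.39 on the log2 scale (adjusted p = 6.4e-07). Htr7, the serotonin 5-HT7 receptor, was at 14.1, 23.2 and 17.9 CPM in the Chrna5 pools, against 6.02, 5.70 and 2.19 CPM in the Amigo1 pools (1.97 ± 0.48, adjusted p = 0.043, shift -0.71), and that call held in 1 of the 6 fits. With the list term Htr7 was at 1.24 (adjusted p = 0.35, edgeR). When the saline pump pool was left out, 1 of the 13 was higher and 2 lower.

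Htr1a, the inhibitory 5-HT1A receptor, was at 182, 174 and 187 CPM in the Chrna5 pools, against 20.1, 25.2 and 46.9 CPM in the Amigo1 pools (2.57 ± 0.31, adjusted p = 0.00084, edgeR). It had 0.459 CPM in ChAT IPs, so its list shift could not be checked. On list 2, Epyc IPs averaged 267 CPM of Htr1a, and the Amigo1 minus Epyc difference was -3.12 (log2; adjusted p = 4.2e-06). All 3 Chrna5 pools lay far above the 3 Amigo1 pools.

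Among GABA and glutamate receptor genes, ionotropic and metabotropic together, the 4 calls of comparable genes over the 6 IPs were higher in the Chrna5 line. Of all comparable genes, 1.32% were called higher and 1.02% lower. Of 20 GABA receptor genes tested, 11 were comparable, with 2 higher, 0 lower and a median of 0.01. Gabra5, a GABA-A subunit often found outside synapses, was at 18.2, 27.5 and 39.1 CPM in the Chrna5 pools, against 6.40, 6.27 and 2.92 CPM in the Amigo1 pools (2.43 ± 0.45, adjusted p = 0.011, edgeR, shift -0.70). Kctd8, an auxiliary subunit of GABA-B receptors, was at 95.2, 108 and 117 CPM in the Chrna5 pools, against 44.4, 43.6 and 25.4 CPM in the Amigo1 pools (1.49 ± 0.26, adjusted p = 0.0082, shift 0.19). Of 23 glutamate receptor genes, 17 were comparable, with 2 higher, 0 lower and a median of -0.01.

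Grik3, a kainate receptor subunit, was at 59.0, 73.5 and 91.2 CPM in the Chrna5 pools, against 23.9, 21.2 and 8.04 CPM in the Amigo1 pools (2.06 ± 0.39, adjusted p = 0.012, edgeR, shift 0.05). Grm4, a presynaptic metabotropic receptor, was at 86.7, 93.4 and 93.4 CPM in the Chrna5 pools, against 31.7, 44.7 and 48.0 CPM in the Amigo1 pools (1.14 ± 0.23, adjusted p = 0.018, shift -0.35). Grm4 turned to -0.90 against the nicotine-water Amigo1 IPs alone (adjusted p = 0.64). Neither pair of groups overlapped. Without the saline pump pool the GABA receptor list had 2 comparable members higher and 1 lower, and the glutamate receptor list 2 higher and 2 lower.

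Peptides and fast transmitters gave few readable differences, beside 1.32% of all comparable genes called higher and 1.02% lower. Of 22 peptide precursors tested, 11 were comparable, with 1 higher, 0 lower and a median of -0.01. Tac1, the precursor of substance P and neurokinin A, was at 25.1, 21.5 and 15.6 CPM in the Chrna5 pools, against 3.20, 4.27 and 2.05 CPM in the Amigo1 pools. The difference was 2.68 ± 0.45 (SE, adjusted p = 0.0058, edgeR), with a shift of -0.31 and a value of 2.33 with the list term (adjusted p = 0.037). Epyc IPs had 1.12 to 3.57 CPM of Tac1, not measurably different from Amigo1 IPs (0.34, adjusted p = 0.80). Scg2 (0.66, adjusted p = 0.052, shift -0.32) and Cck (-2.92, adjusted p = 0.055, shift 0.38) did not pass. Of the 11 precursors, 2 were higher and 1 lower without the saline pump pool.

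None of the 7 tested genes of GABA and glycine release was comparable, so nothing is read from them. Of 4 genes of glutamate release, all comparable, 0 passed by edgeR, 2 had an unadjusted p under 0.05, and DESeq2 called 1. Slc17a8, the vesicular glutamate transporter VGLUT3, averaged 15.4 ± 3.73 CPM in Chrna5 IPs and 35.4 ± 7.96 CPM in Amigo1 IPs (SD, n = 3 each; adjusted p = 0.065, edgeR, shift -0.70). Of 10 comparable genes of peptide processing and 12 comparable peptide receptors, 0 passed by edgeR, with medians of -0.09 and -0.33. In these lists 1 and 3 genes had an unadjusted p under 0.05, and DESeq2 called 1 and 2. With the saline pump pool left out, 1 gene of glutamate release, Slc17a8, was lower (-1.17, adjusted p = 0.023, edgeR), and so was 1 gene of peptide processing.

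Single ion channel genes were called in both directions, beside 1.32% of all comparable genes called higher and 1.02% lower. Of 70 potassium channel genes, 52 were comparable, with 3 higher, 1 lower and a median of 0.29. Kcna1, the Kv1.1 subunit that limits axonal firing, was at 74.9, 82.9 and 101 CPM in the Chrna5 pools, against 252, 259 and 273 CPM in the Amigo1 pools (-1.60 ± 0.18, adjusted p = 0.00059, edgeR, shift -0.22 ± 0.78). It was called in all 6 fits that left out a library, but not with the list term (-1.83, adjusted p = 0.33). Epyc IPs held 227 to 329 CPM of Kcna1, not measurably different from Amigo1 IPs (-0.13, adjusted p = 0.64).

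Kcng4, a silent modifier of Kv2 channels, averaged 27.8 ± 18.1 CPM in Chrna5 IPs and 4.52 ± 2.39 CPM in Amigo1 IPs (SD, n = 3 each; log2 difference 2.65, adjusted p = 0.022, edgeR, shift -0.01). Kcnab3, a Kv1 beta subunit, averaged 161 ± 53.0 CPM in Chrna5 IPs and 75.1 ± 6.26 CPM in Amigo1 IPs (SD, n = 3 each; 1.10, adjusted p = 0.030, shift -0.52). With the list term Kcnab3 was at 0.57 (adjusted p = 0.53, edgeR). Of 34 sodium and calcium channel genes, 25 were comparable, with 2 higher, 1 lower and a median of -0.02. Scn1a, the Nav1.1 channel, was at 343, 387 and 354 CPM in the Chrna5 pools, against 149, 191 and 142 CPM in the Amigo1 pools (1.17 ± 0.18, adjusted p = 0.0034, edgeR, shift -0.16). Against the nicotine-water Amigo1 IPs alone, which ranged from 153 to 535 CPM, Scn1a turned to -0.23 (adjusted p = 0.85). Cacng3, an AMPA receptor auxiliary subunit, was also higher (1.68 ± 0.40, adjusted p = 0.037), though its shift of -0.90 lay near the limit. Cacna1e, the R-type calcium channel, was lower at 309, 303 and 263 CPM in the Chrna5 pools, against 426, 492 and 432 CPM in the Amigo1 pools (-0.63 ± 0.16, adjusted p = 0.045, shift -0.28). Without the saline pump pool, 6 comparable potassium channel genes were higher and 7 lower, and 4 comparable sodium and calcium channel genes were higher and 1 lower.

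Single genes of axon guidance and adhesion were called on both sides too, beside 1.32% of all comparable genes called higher and 1.02% lower. Of 62 axon guidance genes, 53 were comparable, with 1 higher, 3 lower and a median of -0.05. Sema6a, a transmembrane semaphorin, was at 219, 191 and 165 CPM in the Chrna5 pools, against 331, 344 and 387 CPM in the Amigo1 pools (-0.89 ± 0.17, adjusted p = 0.014, edgeR, shift -0.10). Its receptor Plxna2 was at 96.7, 114 and 104 CPM in the Chrna5 pools, against 162, 216 and 178 CPM in the Amigo1 pools (-0.82 ± 0.19, adjusted p = 0.033, shift -0.56). Sema3e, a secreted semaphorin, was at 15.2, 22.7 and 17.7 CPM in the Chrna5 pools, against 5.79, 2.09 and 4.68 CPM in the Amigo1 pools (2.16 ± 0.48, adjusted p = 0.028, shift -0.15). Plxnd1, the receptor of Sema3e, was at 9.50, 8.06 and 7.13 CPM in the Chrna5 pools, against 26.6, 24.5 and 17.7 CPM in the Amigo1 pools (-1.48 ± 0.35, adjusted p = 0.038, shift -0.04). Neither pair of groups overlapped, but the calls held in 3 of the 6 fits that left out a library for Sema3e and in 1 for Plxnd1. Among comparable axon guidance genes, 5 were higher and 5 lower without the saline pump pool.

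On list 2 as well, Amigo1 IPs exceeded Epyc IPs for Sema6a by 1.82 and for Plxna2 by 1.80 on the log2 scale (adjusted p = 9.8e-06 and 8.4e-06, edgeR). Of 18 comparable cadherins and protocadherins, 2 were higher and 0 lower, with a median of 0.02. They were Pcdh10 (1.13 ± 0.21, adjusted p = 0.011, edgeR, shift -0.60) and Cdh13 (1.501 ± 0.33, adjusted p = 0.026, shift -0.23), both homophilic adhesion proteins. With the list term Pcdh10 was at 0.52 and Cdh13 at 1.27 (adjusted p = 0.58 and 0.20, edgeR). Of 35 comparable synaptic organisers, 1 was higher, 1 lower, and the median was 0.07. Counts of both lists stand beside 1.32% higher and 1.02% lower over all comparable genes. Lrrtm1 was at 51.4, 54.8 and 61.1 CPM in the Chrna5 pools, against 21.4, 25.3 and 15.9 CPM in the Amigo1 pools (1.41 ± 0.27, adjusted p = 0.013, shift -0.09). Its paralogue Lrrtm4 was at 8.93, 9.72 and 11.3 CPM in the Chrna5 pools, against 19.6, 25.3 and 40.3 CPM in the Amigo1 pools (-1.504 ± 0.37, adjusted p = 0.041), with a list shift of 0.87. Both are postsynaptic leucine-rich repeat proteins. The call of Lrrtm4 held in 2 of the 6 fits that left out a library, and with the list term its difference was -0.64 ± 0.55 (adjusted p = 0.64). When the saline pump pool was left out, 3 comparable organisers were higher and 1 lower, and 3 comparable cadherins and protocadherins were higher.

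The 15 largest higher differences among comparable genes that were called, had groups that did not overlap and reached 10 CPM ran from 3.29 to 2.27 on the log2 scale. In order they were Rnf121, Lmo2, Asic4, Chst15, Adarb2, Ngfr, Tac1, Kcng4, Klhl14, Acvr1c, Gabra5, Cntn4, Chrnb4, Pvrl1 and Pdss2. The list shift was under 0 for 13 of the 15, the direction that adds to a higher value in Chrna5 IPs, and 4 of the 15 (Chst15, Adarb2, Tac1 and Chrnb4) were called in all 6 fits that left out a library. Adarb2, a brain relative of the RNA-editing deaminases, was at 246, 246 and 281 CPM in the Chrna5 pools, against 44.6, 41.1 and 23.2 CPM in the Amigo1 pools (2.82 ± 0.26, adjusted p = 0.00016, edgeR). Its shift was -0.89 and its difference with the list term 1.93 (adjusted p = 0.12). Ngfr, the p75 neurotrophin receptor, was at 24.2, 38.8 and 84.7 CPM in the Chrna5 pools, against 5.33, 12.7 and 2.34 CPM in the Amigo1 pools (2.82 ± 0.62, adjusted p = 0.027). Its list shift of -0.54 ± 1.44 (SE) was too imprecise to place it under 1. With the list term its difference was 2.29 ± 1.52 (adjusted p = 0.52, edgeR).

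Asic4, a member of the acid-sensing channel family, was at 20.1, 25.3 and 29.1 CPM in the Chrna5 pools, against 0.762, 2.42 and 5.99 CPM in the Amigo1 pools (3.08 ± 0.64, adjusted p = 0.020, edgeR), with a shift of 0.37. Chst15, which sulphates chondroitin chains, was at 83.3, 77.1 and 74.1 CPM in the Chrna5 pools, against 8.38, 7.12 and 17.4 CPM in the Amigo1 pools (2.86 ± 0.36, adjusted p = 0.0012), but its shift of -0.99 lay just inside the limit. Cell adhesion was represented by Cntn4 (2.41 ± 0.42, adjusted p = 0.0080, shift -0.82), a contactin, and Pvrl1 (2.38 ± 0.42, adjusted p = 0.0084, shift -0.12), a nectin. With the list term Cntn4 was at 1.58 (adjusted p = 0.30, edgeR). In the test on the shared list, the Amigo1 minus Epyc difference was -3.50 for Adarb2, -3.26 for Chst15, -2.98 for Pvrl1 and -2.18 for Cntn4 (log2; adjusted p = 8.2e-07, 8.5e-06, 0.00012 and 0.0014).

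**Figure D5:**
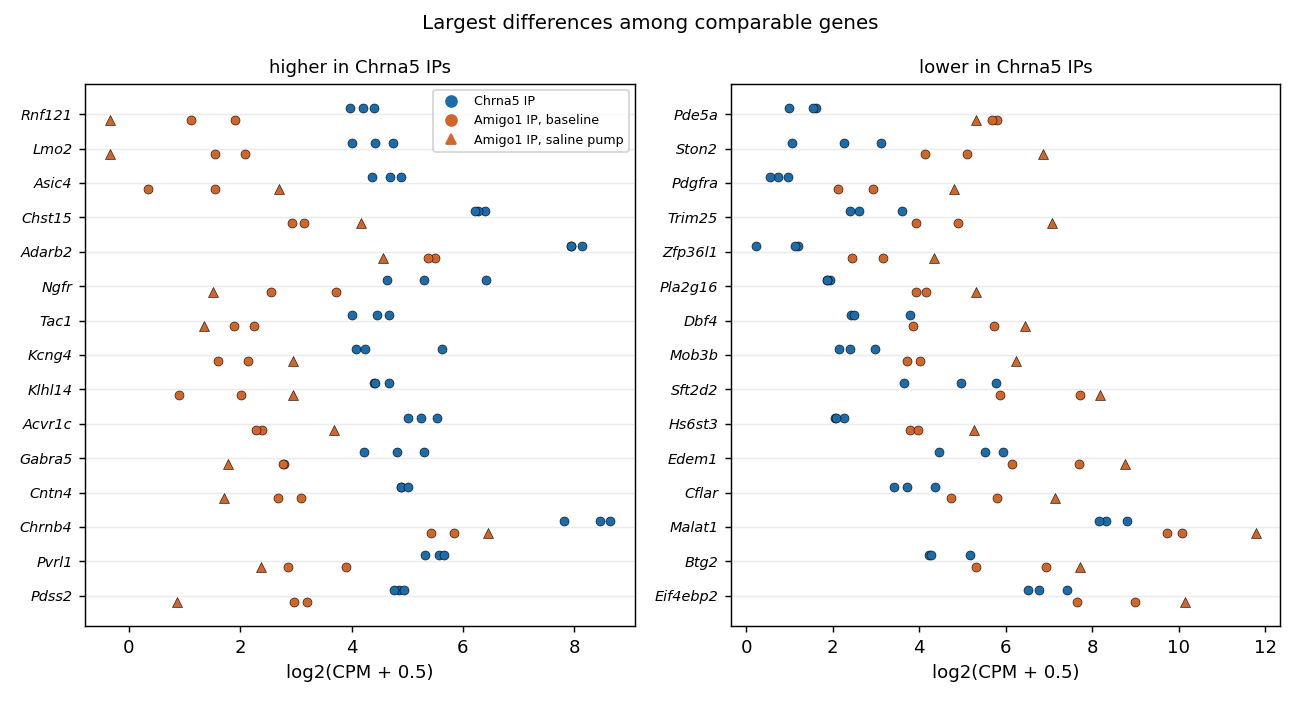
Log2(CPM + 0.5) of the 15 largest higher (left) and 15 largest lower differences (right) among called comparable genes that reached 10 CPM and whose groups did not overlap, with Chrna5 IPs in the upper row of each gene and Amigo1 IPs in the lower. In the right panel the saline pump pool (triangle) is the highest of the 6 libraries for 14 of 15 genes, Pde5a being the exception.

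The 15 largest lower differences by the same rule ran from -4.48 to -2.31. After Pde5a they were Ston2, Pdgfra, Trim25, Zfp36l1, Pla2g16, Dbf4, Mob3b, Sft2d2, Hs6st3, Edem1, Cflar, Malat1, Btg2 and Eif4ebp2. For these 14 the saline pump pool was the highest of the 6 libraries, and Pde5a alone among the 15 was called in all 6 fits that left out a library. Malat1, a nuclear non-coding RNA, was at 321, 287 and 444 CPM in the Chrna5 pools, against 1072, 853 and 3508 CPM in the Amigo1 pools (-2.37 ± 0.47, adjusted p = 0.015, edgeR, shift -0.02). Pdgfra, the defining receptor of oligodendrocyte precursors, was at 1.16, 0.968 and 1.47 CPM in the Chrna5 pools, against 3.88, 7.12 and 27.5 CPM in the Amigo1 pools (-3.40 ± 0.78, adjusted p = 0.032, shift -0.87). Pla2g16, a phospholipase, was at 3.34, 3.13 and 3.14 CPM in the Chrna5 pools, against 17.4, 14.8 and 39.5 CPM in the Amigo1 pools (-2.89 ± 0.48, adjusted p = 0.0056, shift -0.20). Without the saline pump pool the differences were -2.19 for Pdgfra, -1.45 for Malat1, -1.60 for Trim25, -1.39 for Mob3b, -1.51 for Cflar and -1.52 for Eif4ebp2, all still called. Sft2d2 and Edem1 were then at -2.06 and -1.70 and no longer passed (adjusted p = 0.26 and 0.14, edgeR). C1qa, a complement gene of microglia that did not reach 10 CPM, was at 0, 0 and 0.0223 CPM in the Chrna5 pools, against 0.533, 1.09 and 7.31 CPM in the Amigo1 pools (adjusted p = 0.027 with that pool and 0.063 without it). Over all 109 comparable genes called lower, the saline pump pool was the highest Amigo1 pool for 78, and over the 142 called higher it was the lowest Amigo1 pool for 75.

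Markers of several other cell types differed as well, beside 1.32% of all comparable genes called higher and 1.02% lower. Among 12 tested markers of dopamine and serotonin neurons, 5 were comparable, with 0 higher and 2 lower and a median of -1.21. Th, the rate-limiting enzyme of dopamine synthesis, was at 119, 157 and 193 CPM in the Chrna5 pools, against 265, 262 and 453 CPM in the Amigo1 pools (-1.06 ± 0.26, adjusted p = 0.044, edgeR, shift 0.41), and Aldh1a1 differed by -1.52 ± 0.35 (adjusted p = 0.032, shift -0.90). Of 6 comparable precursor markers, 1 was lower, and of 5 comparable oligodendrocyte markers 0 passed by edgeR, with a median of -1.29. In the oligodendrocyte list 3 had an unadjusted p under 0.05 and DESeq2 called 3. Summed levels of 16 astrocyte markers were 581.5, 723.8 and 756.8 CPM in the Chrna5 pools, against 551, 587.3 and 949.4 CPM in the Amigo1 pools, with overlap. Aldoc, an astrocyte glycolytic enzyme, was at 256, 347 and 304 CPM in the Chrna5 pools, against 120, 124 and 234 CPM in the Amigo1 pools (0.93 ± 0.27, adjusted p = 0.079). The median log2 difference was -1.31 over the 16 astrocyte markers, 9 of them with a list shift of 1 or more. Over the 6 comparable ones the median was -0.60, and 0 were called in the 6 IPs. Without the saline pump pool, 2 of those 6 were higher, Aldoc (1.31, adjusted p = 0.00021, edgeR) and Slc4a4 (0.85, adjusted p = 0.017). Of 8 tested markers of medial habenula neurons, all comparable, 2 were higher, Kctd8 and Lmo3, while Gpr151, a defining receptor of those neurons, was not tested and stood at 0 to 1.45 CPM without TMM scaling in all 6 IPs. Lmo3, a LIM-only cofactor, was at 147, 148 and 177 CPM in the Chrna5 pools, against 25.8, 28.0 and 53.2 CPM in the Amigo1 pools (2.15 ± 0.30, adjusted p = 0.0020, edgeR, shift -0.45). Against the nicotine-water Amigo1 IPs alone it was at -0.34 (adjusted p = 0.89). In the fit without that pool 3 of the 8 habenula markers were higher, and 2 of the 5 dopamine and serotonin markers were lower.

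Respiratory chain genes gave 4 calls, all higher, beside 1.32% of all comparable genes called higher and 1.02% lower. Of 91 tested, 79 were comparable, with 4 higher, 0 lower and a median of 0.36, beside a median of 0.01 over all comparable genes. Cyc1, of complex III, was at 244, 261 and 270 CPM in the Chrna5 pools, against 145, 111 and 144 CPM in the Amigo1 pools (0.95 ± 0.18, adjusted p = 0.011, edgeR). Its list shift was -0.54 and was itself called in ChAT IPs (adjusted p = 0.045), and with the list term its difference was 0.41 (adjusted p = 0.43). Ndufa10, Atp5b and Ndufa12 differed by 0.72, 0.75 and 0.85 (adjusted p = 0.037, 0.037 and 0.045), with shifts of -0.05, 0.52 and -0.43. Of the 79, 9 were higher without the saline pump pool. Summed levels of the 91 genes were 17040, 19710 and 18020 CPM in the Chrna5 pools, against 13670, 12520 and 14740 CPM in the Amigo1 pools. Summed levels of 76 ribosomal protein genes were 2707, 2905 and 2800 CPM in the Chrna5 pools, against 4545, 2563 and 8031 CPM in the Amigo1 pools, with overlap. Of the 76, 21 had a list shift of 1 or more, as had 12 of the 91 respiratory genes. The median shift of ribosomal genes measured in ChAT IPs was 0.56. Over the 54 comparable ribosomal genes the median log2 difference was -0.58, and -0.11 with the list term, so no difference is read from these sums. Among 15 comparable immediate early genes, Btg2 was the 1 called, at -2.35 ± 0.53 (adjusted p = 0.029, shift 0.63). In the fit without the saline pump pool 3 of the 15 were lower, Btg2, Nr4a1 and Dusp6.

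The gene-list term estimated line and list in 1 fit of 11 IPs. It left 21 comparable genes past adjusted p under 0.05, and 15 of them were among the 251. These 15 were Pde5a, Fam46a, March1 and Ppfia2 on the lower side, and Tcf7l2, Chrna3, Chrnb4, Ebf1, Sox6, Ankrd6, Asap1, Esrrg, Nrep, Phactr1 and Tac1 on the higher side, a set named after its values were seen. Fam46a was at 56.3, 51.4 and 58.6 CPM in the Chrna5 pools, against 143, 133 and 169 CPM in the Amigo1 pools (-1.42 ± 0.20, adjusted p = 0.0021, edgeR, shift -0.67). Ankrd6, a Wnt pathway regulator also known as diversin, was at 161, 134 and 170 CPM in the Chrna5 pools, against 30.8, 26.8 and 39.6 CPM in the Amigo1 pools (2.26 ± 0.23, adjusted p = 0.00026, shift -0.46). Epyc IPs averaged 297 CPM of Ankrd6 and 15.5 CPM of Fam46a, with Amigo1 minus Epyc differences of -3.19 and 3.27 (log2; adjusted p = 3.6e-07 and 1.9e-07).

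The difference between lines was also set against that of the inputs. The IP difference exceeded the input difference at adjusted p under 0.05 for 529 genes in the higher (3.46%) and 535 in the lower direction (3.5%) of 15276 tested, and among comparable genes for 180 (1.68%) and 255 (2.37%). With the pool of mice as a block, 407 and 263 passed. Of the 251 comparable calls between IPs, 208 passed in this test too in the same direction, and 175 with the block. The test uses the same 6 IPs as those calls, and only 4 of 14754 genes were called between inputs. Passing again is therefore no separate support. The difference beyond input was 2.10 for Tcf7l2, 2.05 for Esrrg, 1.83 for Ebf1 and 2.66 for Tac1 (log2; adjusted p = 2.6e-05, 9.7e-06, 0.0006 and 0.00075, edgeR). It was -1.26 for Chrm5 and -1.63 for Kcna1 (adjusted p = 0.0044 each). All inputs were on list 1 and Amigo1 IPs on list 2, so this test carries the list shift as well.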

How the data were processed

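Per the labels' protocols, IPN tissue of pooled adult mice was homogenised, EGFP-tagged polysomes were captured on beads coated with GFP antibodies, and cDNA was amplified from IP and input RNA before sequencing. Per the submitters' processing notes, STAR 2.3.0e, HTSeq, DESeq2 and the mm10 genome were used. The deposited files hold HTSeq counts per gene symbol, without unique molecular identifiers, on 3 gene lists of different lengths, per the file headers and rows. No source used here explains the difference between lists. Rows for unassigned reads were left out, and their shares did not overlap between the IPs of the 2 lines, which are also on different lists. As a share of all rows, reads in no feature were 10.1 to 14.4% in Chrna5 IPs and 15.4 to 27.3% in Amigo1 IPs. Reads that were not unique were 36.7 to 45.4% in Chrna5 IPs and 46 to 57% in Amigo1 IPs, and ambiguous reads 3.82 to 4.79% in Chrna5 IPs and 0.536 to 1.1% in Amigo1 IPs. Ambiguous reads also differed by list within a line. They were 1.33 to 1.6% in ChAT IPs on list 2 and 3.33 to 4.04% in those on list 1. Amigo1 inputs, on list 1, held 4.48 to 5.37%.

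The members and gene lists were chosen with earlier results of these data known. Counts of the 22926 shared symbols were tested with edgeR 4.0.16 in R 4.3.3 (libraries scaled by TMM, low genes removed by filterByExpr at 10 counts, robust quasi-likelihood test, Benjamini-Hochberg over all genes, calls at adjusted p under 0.05). DESeq2 1.42.0, other scalings and filters, leaving out each library, replicate blocks, a gene-list term, a 1.5-fold threshold and other Amigo1 or Epyc libraries were alternatives. Named genes were the line markers, the 15 largest called differences each way among comparable genes whose groups did not overlap and which reached 10 CPM (predicted genes left out), and up to 5 called comparable members of each list; other names were chosen after their values were seen. The fitting was tested on simulated data with 200 changed genes. A count of 3 corresponds to 0.0644 to 0.433 CPM in the 6 IPs, which covers counting error only.

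IP and input of a pool were taken to come from the same mice, as the labels give them the same number and number of animals. The pool was therefore used as a block for IP against input. Deviations correlated at 0.0115 to 0.156 within pools, and at -0.0632 to 0.0682 between pools of the 2 lines that share only a number. These ranges overlap and do not settle the pairing. Pools are the replicates, and p-values measure the spread between pools. Of 68 genes that the naming rule gave, 13 have exons that overlap another gene in GENCODE M21, and no strand marking is named, so reads in those exons cannot be assigned with certainty. They include Pde5a, Nos1, Epyc, Gabra5, Chst15, Acvr1c, Kcnab3, Klhl14, Lrrtm4, Pcdh10, Pdgfra and Zfp36l1. The other 1 is not reported here.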

Additional observations from a re-analysis of the deposited data

Results flagged for a closer look

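Single libraries stood apart in 4 of 48 pairs of a gene and a group, where chance gives about 1 in 20 groups. Chrna5 was at 64.1 CPM in the Epyc saline pump input, against 23.3 to 25.0 CPM in the other Epyc inputs. Amigo1 was at 178 CPM in that same input, against 95.7 to 100 CPM in the others, and at 120 CPM in Chrna5 input 3, against 96.8 to 101 CPM in the other Chrna5 inputs. Pde5a was at 7.56 CPM in Chrna5 input 4, against 2.91 to 3.63 CPM in the other Chrna5 inputs.

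For 7 genes, all already called between these IPs, the log2 ratio of IP over input differed between lines by a test of the difference itself. The genes looked at were a chosen few, and the test uses the same IPs again, so it gives no separate support. Over all 15276 genes tested, 529 (3.46%) passed in the higher and 535 (3.5%) in the lower direction. The differences, Chrna5 line minus Amigo1 line, were -3.98 for Pde5a, 2.10 for Tcf7l2, 2.05 for Esrrg, 1.83 for Ebf1, 2.66 for Tac1, -1.26 for Chrm5 and -1.63 for Kcna1 (adjusted p = 8e-05, 2.6e-05, 9.7e-06, 0.0006, 0.00075, 0.0044 and 0.0044, edgeR). Their inputs share list 1 and their Amigo1 IPs are on list 2, so part of each value can be the list.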

How the results depend on the processing

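The 724 calls between IPs (251 comparable) became 1651 (795) by DESeq2, 387 (62) with a 1.5-fold threshold, 35 (21) with the gene-list term and 40 (0) with nicotine-water Amigo1 IPs added. They became 22 (0) when the saline pump IP was also left out, an alternative added after seeing the data. There 390 comparable genes had an unadjusted p under 0.05, and DESeq2 called 38. With nicotine-water IPs in place of the others, 537 comparable genes passed, but only 20 of the 251 were called. Leaving out single libraries gave 290 to 1275 calls (42 to 587 comparable), lowest without Chrna5 pool 4 and highest without the Amigo1 saline pump pool. Without Amigo1 pool 4, 381 comparable genes passed, 124 higher and 257 lower, and without Chrna5 pools 1 and 2 or Amigo1 pool 1 in turn, 95, 62 and 106. Pool numbers across lines share only a number (correlations of deviations -0.0112 and 0.0471 for IPs); with them as a replicate block, 1370 genes (669 comparable) passed between IPs and 10 between inputs. The 1319 list shifts in ChAT IPs became 2311 by DESeq2, 862 with a nicotine term, and 425 to 3758 without single libraries, lowest without the saline pump IP and highest without saline-injected saccharin IP 2. The 4 calls in inputs became 29 by DESeq2, 2 against Epyc inputs (added after seeing the data), and 4 to 12 without single libraries, highest without Chrna5 input 2. The 1064 genes beyond input became 1701 by DESeq2, 670 with the replicate block of pools, and 772 to 1597 without single libraries, highest without Amigo1 pool 4.

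Amigo1, not called, ran from -0.040 to 0.33 without single libraries, and Nos1 was at -1.99 with the list term. Against nicotine-water Amigo1 IPs alone the sign turned for Cntn4 (-0.63), Trim25 (1.12), Zfp36l1 (0.24), Dbf4 (5.11), Sft2d2 (1.51), Hs6st3 (0.24), Edem1 (0.17), Btg2 (0.32), Grm4 (-0.90), Scn1a (-0.23), Ndufa12 (-0.33), Lmo3 (-0.34) and Slc17a8 (0.58). Grm4 was at -0.22 with those IPs added and at -0.37 with them and without the saline pump IP, where Cntn4 was at -0.015. The causes were not tested. Scaling by relative log expression and other filters on low counts moved no count by over 1.5 times. The saline pump pool, with 7908401 counts in genes, limits the precision of low genes most.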

Other observations

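Abcd3, the 1 gene outside the cluster that was called higher in Chrna5 inputs, was not called in IPs. There it was at 75.1, 87.6 and 80.3 CPM in the Chrna5 pools, against 75.0, 64.9 and 43.9 CPM in the Amigo1 pools (log2 difference 0.40 ± 0.24, SE, adjusted p = 0.43, edgeR).

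B-cell and plasma-cell factors were measurable in both lines. The summed level of 7 such genes was 488.5, 309.5 and 223 CPM in the Chrna5 pools, against 1045, 358 and 1701 CPM in the Amigo1 pools, mostly Irf4 and Pou2af1. Summed levels of 9 microglia markers were 14.3, 14.4 and 14 CPM in the Chrna5 pools, against 27.7, 14.5 and 55.4 CPM in the Amigo1 pools.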
